A study of Mus musculus with 240 samples.

Results

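The genes described here encode the collagens, the laminins, the proteases that cut the extracellular matrix and the inhibitors of those proteases. They were chosen by name alone: collagen alpha chains (Col), laminin chains (Lama, Lamb and Lamc), matrix metalloproteinases (Mmp), tissue inhibitors of metalloproteinases (Timp) and ADAMTS proteases (Adamts), each with its number. Of the 14785 genes with deposited log2 expression values, 77 carry such a name: 40 collagens, 11 laminins, 9 Mmp genes, 3 Timp genes and 14 Adamts genes. A further 22 genes with such names were counted but lie outside the log2 table, and the most abundant of them was Col4a3, at a mean of 1.07 CPM (reads scaled to a common library total). All 77 were tested in every comparison below.

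RNA was sequenced from 48 mice of the 8 inbred strains that founded the Collaborative Cross: C57BL/6J (B6), A/J (AJ), 129S1/SvImJ (S129), NOD/LtJ (NOD) and NZO/HILtJ (NZO), and the wild-derived WSB/EiJ (WSB), CAST/EiJ (CAST) and PWK/PhJ (PWK). Each strain gave 3 males and 3 females that had received no treatment; the deposited design gives an age of 8 weeks, whereas the study's methods describe somewhat older adults. Punches were taken from each mouse in the prelimbic cortex (PrL), in the core of the nucleus accumbens (NAcc) and in the central amygdala (CeA), and each strain and region is represented by 6 libraries, or 5 for B6 in the NAcc, which makes 143 in all. B6 and PWK were the strains of high ethanol preference in the study, and the mean of the other 6 is called Low_Average. A strain is 1 inbred line, so a strain difference covers everything that separates that line from the others, and a punch holds every cell type at its site: fewer cells of a type and less RNA per cell cannot be told apart.

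Collagens and laminins are the structural proteins of the matrix. Laminins and type IV collagens form the sheets of basement membranes, which in the brain lie beneath the meninges and around blood vessels, whereas fibrillar collagens build the fibrils of the meninges and vessel walls, and fibril-associated and beaded-filament collagens decorate or link them. Mmp and ADAMTS enzymes cut these proteins and the proteoglycans between them, several ADAMTS enzymes cut the lecticans that surround neurons, and Timp proteins block Mmp enzymes.

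Total counts ran from 14942820 to 33951616 per library, with a median of 24456928. All reads were aligned to the reference genome of C57BL/6J; the effect of this on counts of the other strains was not tested. Sums of cell type markers were computed for each library because the matrix genes differ between cell types. In 12 of the 48 CeA libraries the 10 choroid plexus markers summed to over 500 CPM, up to 9559 CPM, whereas the highest of the other 36 reached 223 CPM; of the 12, 1 was PWK, 2 were B6, 3 NOD, 3 S129, 1 NZO and 2 WSB. In the 3 regions 8 libraries lay far from their region's median in a neuronal, oligodendrocyte or fibroblast sum. They were mouse 1 (B6) and mouse 12 (CAST) in the CeA, and mouse 33 (B6) and mouse 48 (PWK) in the NAcc. In the PrL they were mouse 25 (B6), mouse 33 (B6), mouse 3 (WSB) and mouse 40 (PWK), with striatal sums of 837, 593, 682 and 2617 CPM. The pallial sums of mouse 25 and mouse 33 in the PrL were low, at 2353 and 3035 CPM. The region labels fitted the medians of the neuronal sums. Pallial glutamatergic markers had a median of 4248 CPM in the PrL, 2022 in the CeA and 529 in the NAcc. Striatal markers had one of 285 CPM in the PrL, 1827 in the CeA and 5151 in the NAcc. The list of central amygdala neurons did not separate the regions in this way, with a median of 1020 CPM in the CeA and 1203 in the NAcc. Single libraries were less distinct: the striatal sum ran from 411 to 11184 CPM in the CeA and from 798 to 10684 in the NAcc. Its strain medians in the CeA ran from 838 CPM in NOD to 6221 in AJ, beside 6394 for AJ in the NAcc. The part of this spread alone in the CeA strain differences was not tested.

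All 77 members differed among the strains in at least 1 region, and within a region their share was near that of all genes. By the limma-voom F test over the 8 strains with a false discovery rate (FDR) of 0.05, 59, 63 and 70 of the 77 differed (CeA, NAcc, PrL), beside 80.7%, 75.9% and 83.8% of all genes tested. In all 3 regions 48 of them differed, in 2 regions 19 and in 1 region 10. The share of all genes by number of regions was not computed. The ADAMTS proteases differed in 11, 12 and 13 of 14 (CeA, NAcc, PrL), the fibrillar collagens in 9, 10 and 9 of 11, the laminins in 5, 8 and 10 of 11, and the Mmp genes in 8, 9 and 8 of 9.

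A unique DEG (differentially expressed gene) is a gene that differed in the same direction between 1 strain and each of the other 7, at an FDR of 0.05 over the 28 strain pairs. The CeA held 13 such members, the NAcc 21 and the PrL 25, and the share of all genes was 19.2%, 17.7% and 26.9%. Over strains and regions this made 61 calls on 40 different members, 31 up-expressed and 30 down-expressed, and in 19 of the 61 no library of the strain overlapped with any library of the other 7. Of all 10183 such calls over all genes 48.4% were up-expressed and 31.7% had no overlap, so the members stood near the background in both respects. In a model added after the data were seen, with the log2 marker sums of fibroblasts, choroid plexus, oligodendrocytes and striatal and pallial neurons as covariates, 23 of the 61 calls were lost, and 1 of these changed its sign (Adamts2, below). Each of the 61 had the same sign within each of the 3 sequencing trays. The same libraries gave the calls, so this is no separate evidence, and its share over all genes was not computed. CAST had 14 different members among its unique DEGs in at least 1 region (13.2% of all genes), PWK 11 (12.2%), B6 6 (6.24%), AJ 4 (2.54%), NOD 4 (1.69%), NZO 3 (1.53%) and S129 2 (1.22%). WSB had 1, beside 4.54% of all genes: Col12a1, a fibril-associated collagen named here after its values were seen, with 15.0 to 40.4 CPM in the WSB libraries of the CeA (median 23.4) and a log2 fold change of 1.29 (SE 0.19, adjusted p = 0.0144). Throughout, the log2 fold change of a unique DEG is the mean over the 7 strain pairs and its adjusted p is the largest of the 7 from limma. In 4 members the same strain and direction were called in all 3 regions, beside 8.75% of all genes: Col4a6 in AJ, Mmp14 in CAST, and Col7a1 and Col27a1 in PWK.

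Col4a6 (ENSMUSG00000031273) encodes a minor chain of type IV collagen, and its gene lies head to head with that of another minor chain, Col4a5 (ENSMUSG00000031274), on chromosome X. In the RefSeq annotation of GRCm38.p6 the 2 starts are 1343 bases apart. Col4a4 (ENSMUSG00000067158) and Col4a3 form a second pair of this kind on chromosome 1, with starts 72 bases apart. The deposited counts use GRCm39, so the positions apply to the sequences only. The bases before the starts are shown, 5′ to 3′ on the strand of the gene, because the difference of AJ described below touched 1 gene of the first pair, and those of CAST and PWK both genes of the second. The Col4a5 window is chrX:141475169-141475418 (plus strand), the Col4a6 window is chrX:141474077-141474326 (minus strand), and the third is the whole interval between Col4a4 and Col4a3, chr1:82586850-82586920 (minus strand). Capitals mark a GC box (GGGCGG) or a CCAAT box (CCAAT) on either strand.
Col4a5: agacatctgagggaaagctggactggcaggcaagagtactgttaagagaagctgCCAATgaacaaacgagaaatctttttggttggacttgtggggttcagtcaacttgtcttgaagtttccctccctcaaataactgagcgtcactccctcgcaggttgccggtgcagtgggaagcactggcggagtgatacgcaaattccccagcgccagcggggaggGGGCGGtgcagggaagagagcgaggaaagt
Col4a6: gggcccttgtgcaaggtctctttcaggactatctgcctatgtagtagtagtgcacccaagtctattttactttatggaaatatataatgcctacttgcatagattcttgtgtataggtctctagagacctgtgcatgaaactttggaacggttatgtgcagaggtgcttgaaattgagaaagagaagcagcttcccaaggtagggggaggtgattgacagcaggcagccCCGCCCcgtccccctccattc
Col4a4: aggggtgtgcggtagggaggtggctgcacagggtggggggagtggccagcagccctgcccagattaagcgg

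The Col4a5 window held 1 GC box and 1 CCAAT box, the Col4a6 window 1 GC box on the opposite strand, and the Col4a4 interval neither. No window held TATAAA. Of the 55 members with a RefSeq promoter window of 250 bases, 67.3% held a GC box, 30.9% a CCAAT box and 7.27% TATAAA. Of all 32851 such windows 32.7%, 33.8% and 12.4% did. All members lie among the genes with deposited expression values, whereas the 32851 windows were not limited to those genes. The shares therefore cannot show whether matrix genes are rich or poor in a motif. No match of one motif overlapped a match of another in the windows shown, and these are matches of letters and no more.

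Col4a6 was almost absent from AJ. The 6 AJ libraries of a region ranged from 0 to 0.0943 CPM in the CeA (median 0.0726), from 0 to 0.296 CPM in the NAcc (median 0.0450) and from 0 to 0.292 CPM in the PrL (median 0.0928). The libraries of the other strains lay at 0.275 to 4.36 CPM, 0.323 to 1.78 CPM and 0.240 to 4.85 CPM, so the groups overlapped only in the PrL, through 1 WSB library at 0.240 CPM. Summed over its 6 libraries, AJ had 9 reads of Col4a6 in the CeA, as many in the NAcc, and 13 in the PrL. This is 0.0635 CPM in the CeA (exact 95% Poisson interval 0.0290 to 0.120, counting error only), 0.0667 CPM in the NAcc (0.0305 to 0.127) and 0.109 CPM in the PrL (0.0581 to 0.187), whereas the other strains pooled had 1.11, 0.951 and 2.12 CPM. The log2 fold change of AJ was -3.61 in the CeA (SE 0.63, adjusted p = 0.00152), -3.92 in the NAcc (SE 0.45, adjusted p = 7.27e-07) and -4.13 in the PrL (SE 0.61, adjusted p = 8.86e-05, limma). Within a tray and region it ran from -5.22 to -2.44.

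The neighbour did not follow in AJ. Col4a5, taken up here after its values were seen, showed no strain difference past the threshold in the CeA (F test, adjusted p = 0.576) or the NAcc (adjusted p = 0.0645, limma), and in the PrL, where it did (adjusted p = 0.00534), the strain that stood apart was NZO, at 5.81 to 10.4 CPM (median 7.09, log2 fold change 0.69, SE 0.14, adjusted p = 0.0361; 0.43 with marker sums as covariates, adjusted p = 0.323). All AJ libraries lay within the range of the other strains for Col4a5. Once strain, sex and tray had been taken out, Col4a5 and Col4a6 were correlated over libraries with r = 0.73, 0.23 and 0.62 (CeA, NAcc, PrL), values that were not tested. Col4a5 also followed the choroid plexus sum in the CeA (r = 0.84, rho = 0.72, permutation adjusted p = 8.08e-05 and 0.000107). B6 exceeded Low_Average, which includes AJ, in Col4a6 by 1.46, 0.78 and 0.98 (log2; CeA, NAcc, PrL). The median of B6 was the highest of the strains in the CeA (1.66 CPM), and those of NZO were highest in the NAcc and PrL (1.47 and 2.93 CPM). The sign of the B6 value in the NAcc was not the same in every tray (1.02, -0.44 and 1.30).

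**Figure D1:**
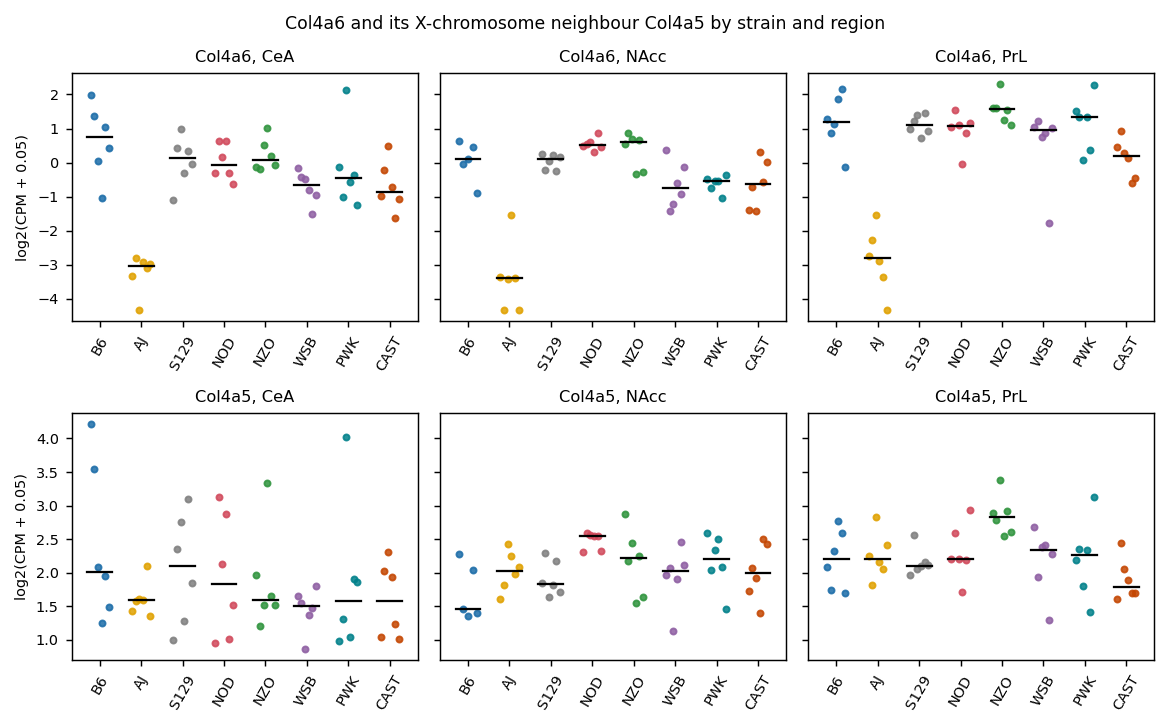
Levels of Col4a6 and of its head-to-head neighbour Col4a5 in each library, by strain and region, as log2(CPM + 0.05); points are libraries and lines are strain medians. The AJ libraries lie at the bottom of the Col4a6 panels, from 0 to 0.296 CPM, and within the range of the other strains in the Col4a5 panels.

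Col4a4, which encodes a further minor chain of type IV collagen, was high in CAST and PWK in the PrL. The CAST libraries held 7.87 to 13.1 CPM (median 10.2) and the PWK libraries 5.48 to 7.39 CPM (median 5.95), whereas the other 6 strains together ran from 0.304 to 1.80 CPM. The 3 ranges did not overlap. CAST was a unique DEG with a log2 fold change of 3.23 (SE 0.14, adjusted p = 0.000156, limma), and its values in the 3 trays were 3.38, 3.53 and 2.86. In the NAcc it was PWK that stood apart, at 1.05 to 2.21 CPM (median 1.94; log2 fold change 1.53, SE 0.21, adjusted p = 0.00281), and its lowest library fell below the highest of the others, 1.21 CPM. In the CeA no strain difference passed the threshold (F test, adjusted p = 0.531). Both calls were lost with marker sums as covariates: the mean fold of CAST in the PrL was 3.10 and the largest of its 7 adjusted p-values 0.117, and that of PWK in the NAcc was 1.27 (adjusted p = 0.282, limma).

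Col4a3, the neighbour across the 71 bases, is below the expression filter and was looked at after its values were seen. Its PrL libraries ranged from 2.64 to 4.98 CPM in CAST (median 3.66) and from 1.36 to 2.49 CPM in PWK (median 1.89), above the 0.113 to 1.31 CPM of the other 6 strains. When the filter was lifted, the strains differed in Col4a3 in the PrL (F test, adjusted p = 4.82e-13) and in the NAcc (adjusted p = 0.0021), and not past the threshold in the CeA (adjusted p = 0.595, limma). Both genes of the pair thus had the order CAST, PWK, then the rest in the PrL. The abundant chains Col4a1 and Col4a2 moved far less: Col4a1 exceeded Low_Average in PWK by 0.32, 0.27 and 0.30 (log2; CeA, NAcc, PrL), and Col4a2 was a unique DEG of CAST in the PrL at 64.6 to 90.4 CPM (median 73.0, log2 fold change 0.34, SE 0.063, adjusted p = 0.0256; 0.37 with marker sums as covariates, adjusted p = 0.117).

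The choroid plexus markers moved with Col4a4 in the CeA. In the 12 libraries with a marker sum over 500 CPM, Col4a4 ran from 1.50 to 22.2 CPM (median 4.00), and in the other 36 from 0.0972 to 2.05 CPM (median 0.702). Within the 12, log2 Col4a4 followed the log2 sum with Pearson's r = 0.94 (permutation p = 1e-05, the smallest possible; adjusted p = 2e-05 over 6 relations) and Spearman's rho = 0.99 (permutation test, adjusted p = 6e-05), and r was 0.95 without the 2 libraries farthest from the median sum. Within the 36, r was -0.22 (permutation p = 0.193, adjusted p = 0.231) and rho was -0.25 (permutation p = 0.133, adjusted p = 0.159). Strain, sex and tray were not taken out of these relations, and libraries were permuted over all strains, so strain differences are part of them. Col8a2, a short-chain collagen, and Col9a3, a fibril-associated one, both named after their values were seen, had the same difference in level: Col8a2 had a median of 17.1 CPM in the 12 and 1.10 in the 36, and Col9a3 one of 53.9 and 12.2. The part of choroid plexus in the CeA levels of these genes was not tested. The highest marker sum of a PrL library was 23.1 CPM.

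Lama2 (ENSMUSG00000019899) encodes the alpha chain of the laminin of muscle and of glial and vascular basement membranes in the brain. It was low in CAST. In the CeA CAST had 2.63 to 4.38 CPM (median 3.44) and the other strains 4.03 to 36.2 (median 16.0), with a log2 fold change of -2.11 (SE 0.22, adjusted p = 0.00293, limma). In the NAcc the 6 CAST libraries, at 2.38 to 3.76 CPM (median 2.93), did not overlap with the others, at 4.56 to 38.5 CPM (log2 fold change -2.34, SE 0.23, adjusted p = 0.00869). In the PrL CAST held 6.74 to 8.90 CPM (median 7.60) and was not a unique DEG. CAST also had the lowest median of the mural cell markers in each region, 148, 160 and 166 CPM beside 218, 232 and 248 over all libraries (CeA, NAcc, PrL), and of the oligodendrocyte markers in the NAcc, 4412 CPM beside 7298. Once strain, sex and tray had been taken out, Lama2 followed the oligodendrocyte sum in the NAcc with r = 0.86 (rho = 0.84, permutation adjusted p = 8.08e-05 and 0.000107; 0.82 without the 2 farthest libraries; 0.90, 0.86 and 0.70 within the trays). With marker sums as covariates, mural markers not among them, the folds of CAST were -2.09 in the CeA (adjusted p = 4.68e-08) and -2.06 in the NAcc (adjusted p = 0.000576, limma); the part of mural cells was not tested. PWK lay below Low_Average in Lama2 as well, by -0.84, -1.20 and -0.62 (CeA, NAcc, PrL). Smaller unique calls stood in other laminins: Lamb1, a widely used beta chain, was higher in CAST in the PrL without overlap (36.7 to 40.8 CPM against 16.4 to 35.9, log2 fold change 0.65, SE 0.062, adjusted p = 0.000193), Lama3 was higher in PWK in the NAcc (0.92, SE 0.15, adjusted p = 0.0311) and Lamc3 in NZO in the PrL (0.48, SE 0.12, adjusted p = 0.0344). Marker sums as covariates ended the calls of Lama3 (1.05, adjusted p = 0.579) and Lamc3 (0.19, adjusted p = 0.621, limma).

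Lama5, Lamb2 and Lamc1, laminin chains of many basement membranes, had no call or only small ones against Low_Average in B6 and PWK. Lama5 and Lamb2, alpha and beta chains of vascular laminins, differed among strains past the threshold in the PrL alone (F test, adjusted p = 0.00424 and 0.00742, limma) and were called neither in B6 nor in PWK against Low_Average. Lamc1, the gamma chain shared by most laminins, had medians of 41.1, 43.5 and 36.3 CPM (CeA, NAcc, PrL), and its B6 and PWK calls were small: 0.19 in B6 in the CeA (SE 0.072, adjusted p = 0.0343) and -0.18 in PWK in the NAcc (SE 0.051, adjusted p = 0.00553). By the F test Lamc1 differed among strains in all 3 regions (adjusted p = 0.00419, 0.000504 and 0.0057, limma). The vascular chain Lama4 did so in the CeA and PrL, and Lamb1 in the NAcc and PrL. Lama1, the alpha chain of the meningeal and embryonic laminin, was lower in PWK in the NAcc (-0.68, SE 0.16, adjusted p = 0.000812). The main type IV chains had similar medians in the 3 regions, although both differed among strains in each (F test, adjusted p from 2.02e-06 to 0.00108, limma). Col4a1 had medians of 47.6, 43.6 and 45.2 CPM (CeA, NAcc, PrL) and Col4a2 of 65.5, 58.1 and 60.5, and Col4a2 was lower in B6 than in Low_Average in the CeA (-0.36, SE 0.11, adjusted p = 0.00588) and the NAcc (-0.47, SE 0.11, adjusted p = 0.000607).

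PWK was low in Col7a1 and Col27a1 in every region. Col7a1 (ENSMUSG00000025650) encodes the collagen of anchoring fibrils. The PWK libraries held 0.628 to 1.83 CPM in the CeA (median 0.885), 0.497 to 1.30 in the NAcc (0.945) and 0.338 to 1.06 in the PrL (0.519), and the other strains 1.45 to 6.40, 1.67 to 6.62 and 1.44 to 10.2 CPM. The groups overlapped in the CeA only. The log2 fold change was -1.67 in the CeA (SE 0.25, adjusted p = 0.00066), -2.07 in the NAcc (SE 0.25, adjusted p = 1.56e-05) and -2.18 in the PrL (SE 0.44, adjusted p = 0.00946, limma). Col27a1 (ENSMUSG00000045672), a fibrillar collagen, differed by -1.0 (SE 0.16, adjusted p = 0.000306), -1.38 (SE 0.14, adjusted p = 0.000272) and -1.43 (SE 0.20, adjusted p = 6.24e-05). Its PWK libraries ran from 5.15 to 8.35 CPM in the CeA, from 3.34 to 7.29 in the NAcc and from 1.75 to 4.61 in the PrL, where alone they did not overlap with the others, at 5.87 to 16.8. Col6a2, a chain of the beaded-filament collagen VI, was a unique DEG of PWK in the CeA (-1.61, SE 0.22, adjusted p = 0.0221) and the PrL (-1.84, SE 0.22, adjusted p = 0.00583).

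Among other fibrillar collagens, Col5a1, which starts the assembly of collagen I fibrils, had different strains at its extremes in the CeA and the PrL, and no unique call in the NAcc. In the CeA CAST was lowest, at 1.45 to 2.63 CPM (median 2.44) against 3.21 to 25.4 (log2 fold change -1.97, SE 0.35, adjusted p = 0.00872, limma). In the PrL NOD was highest, at 40.6 to 60.6 CPM (median 49.2; 1.40, SE 0.15, adjusted p = 0.00214), and PWK lowest, at 6.01 to 13.1 CPM (median 9.07; -1.45, SE 0.23, adjusted p = 0.0447). Both PrL groups overlapped with the rest in 2 of their 6 libraries, and the PWK call was lost with marker sums as covariates (-1.07, adjusted p = 0.168, limma). Col2a1, the cartilage collagen, named after its values were seen, was higher in AJ in the NAcc, at 3.25 to 7.19 CPM (median 4.77) against 0.268 to 3.29 (log2 fold change 1.86, SE 0.20, adjusted p = 0.00578; 1.88 with marker sums as covariates, adjusted p = 0.157).

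NOD had 4 members among its unique DEGs in at least 1 region. In the NAcc 3 of the 77 members (3.9%) were on its list of up-expressed unique DEGs, beside 0.358% of all genes. This list was examined because the study names the extracellular matrix for these genes, so it is no independent evidence of a direction. They were Mmp2, a gelatinase that cuts collagen IV (3.92 to 7.58 CPM, median 5.30, against 0.622 to 4.49; log2 fold change 1.03, SE 0.15, adjusted p = 0.00243, limma), Col1a1, a chain of the main fibrillar collagen (5.79 to 9.77 CPM, median 6.65, against 1.79 to 6.76; 0.76, SE 0.12, adjusted p = 0.0263), and Col11a2, a minor fibrillar chain (38.4 to 55.9 CPM, median 40.7, against 8.58 to 41.3; 0.71, SE 0.089, adjusted p = 0.0419). Each group overlapped with the other strains. The NOD libraries had an oligodendrocyte marker sum of 7985 to 14275 CPM (median 11330), beside a median of 7298 over the region, and fibroblast markers at 28.0 to 36.5 CPM (median 33.3), beside 27.5. With marker sums as covariates the folds were 0.16 for Mmp2 (adjusted p = 0.626), 0.22 for Col1a1 (adjusted p = 0.966) and 0.70 for Col11a2 (adjusted p = 0.416). Col11a2 was at its lowest in PWK in the same region, at 8.58 to 15.4 CPM, with no overlap with the others (-1.31, SE 0.11, adjusted p = 0.000106).

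Collagen VI has 3 neighbouring late chains, Col6a4, Col6a5 and Col6a6, which are close paralogs, so reads shared between them could move from one to another and their values are uncertain to that extent. B6 was high in Col6a4 (ENSMUSG00000032572). In the NAcc the 5 B6 libraries held 9.30, 7.14, 18.7, 16.8 and 9.24 CPM, and no library of another strain exceeded 4.26 CPM. The log2 fold change was 2.96 (SE 0.20, adjusted p = 1.76e-07, limma). In the PrL B6 had 1.77 to 5.54 CPM (median 4.48) and 5 of the 6 libraries lay above all others (1.90, SE 0.17, adjusted p = 0.00378). In the CeA B6 had 4.08 to 6.87 CPM (median 5.00), and the CAST libraries, at 1.56 to 7.00 CPM (median 3.95), overlapped with them. Col6a6 had the opposite order in B6. Its 5 NAcc values were 0.410, 0.278, 0.324, 0.401 and 0.459 CPM, below all 42 other libraries, at 0.542 to 5.31 CPM (log2 fold change -2.31, SE 0.43, adjusted p = 0.0133; -1.89 with marker sums as covariates, adjusted p = 0.494).

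Another pair of collagens separated a strain without overlap in at least 1 region. Col26a1 was high in S129 in the NAcc, at 4.98 to 9.71 CPM (median 5.69) against 0.216 to 4.21 (log2 fold change 2.41, SE 0.18, adjusted p = 0.000974, limma), and less so in the PrL (1.30, SE 0.14, adjusted p = 0.00646), where the call was lost with marker sums as covariates (1.06, adjusted p = 0.545, limma). Col6a3, a long chain of collagen VI named after its values were seen, was high in CAST in the PrL, at 14.5 to 23.4 CPM (median 19.8) against 1.20 to 11.9 (2.15, SE 0.16, adjusted p = 4.55e-07), and in the CeA (1.43, SE 0.17, adjusted p = 0.00337), where it overlapped.

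Among the proteases, Mmp14 (ENSMUSG00000000957), the membrane-bound enzyme that activates Mmp2, was low in CAST. The CAST libraries held 4.50 to 7.36 CPM in the CeA (median 6.75), 6.01 to 8.89 in the NAcc (7.02) and 5.01 to 7.32 in the PrL (6.87). No library of another strain fell below 9.39, 9.30 and 8.91 CPM, so the groups were apart in all 3 regions. The log2 fold change was -1.08 (SE 0.16, adjusted p = 0.000726), -1.16 (SE 0.17, adjusted p = 0.00708) and -1.02 (SE 0.15, adjusted p = 0.00169, limma). With the covariates it was -0.95 (adjusted p = 6.82e-05), -1.09 (adjusted p = 0.281, so the NAcc call was lost) and -0.66 (adjusted p = 0.0138, limma). Mmp9, the other gelatinase, was low in B6 in the NAcc (-1.60, SE 0.32, adjusted p = 0.0299) and in PWK in the PrL (-1.52, SE 0.25, adjusted p = 0.00228), at levels of 0.251 to 0.603 and 0.333 to 0.775 CPM, and the B6 call was lost with the covariates (-1.40, adjusted p = 0.412, limma). Mmp11, a stromal enzyme, was high in PWK in the PrL (0.80, SE 0.13, adjusted p = 0.018).

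**Figure D2:**
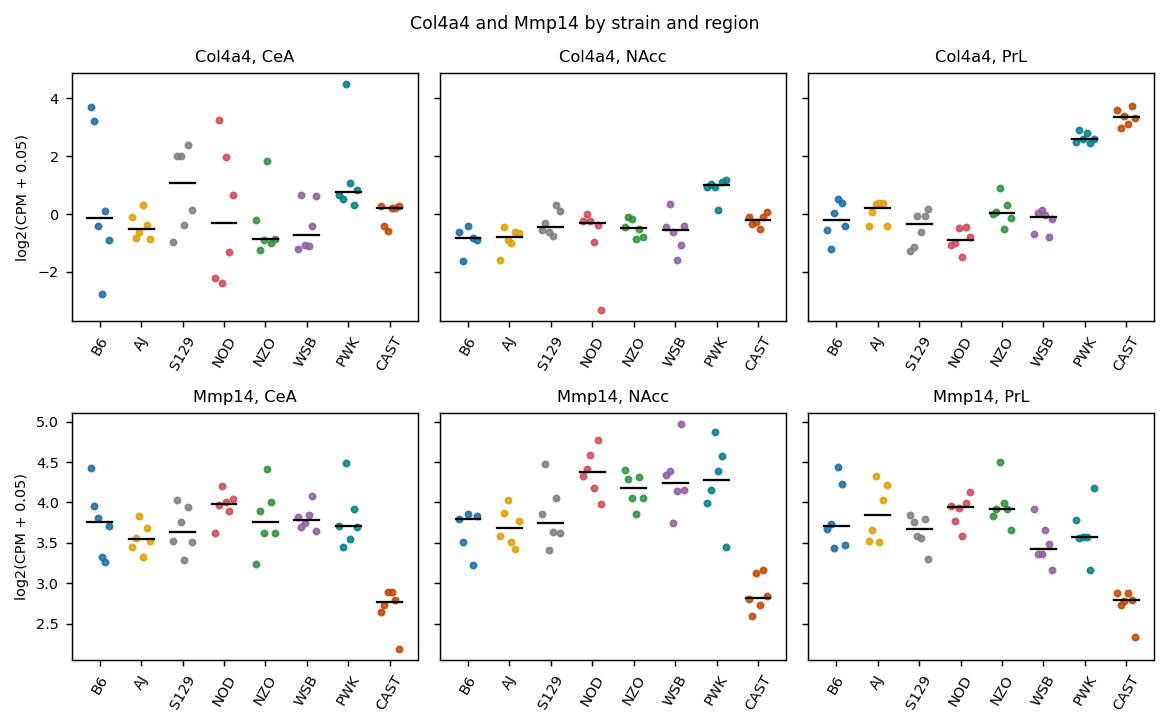
Levels of Col4a4 and Mmp14 in each library, by strain and region, as log2(CPM + 0.05); points are libraries and lines are strain medians. In the PrL CAST and PWK stand above the other strains in Col4a4 (7.87 to 13.1 and 5.48 to 7.39 CPM), and CAST lies below all other libraries in Mmp14 in each region (4.50 to 8.89 CPM).

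Of the ADAMTS proteases, Adamts17 (ENSMUSG00000058145), named after its values were seen, separated PWK in the PrL: its libraries held 12.1 to 14.0 CPM (median 12.5) and all others 3.96 to 8.49 CPM, with a log2 fold change of 1.08 (SE 0.076, adjusted p = 2.1e-09, limma) and tray values of 1.07, 1.07 and 1.12. Adamts16 was high in CAST in the CeA (1.10, SE 0.14, adjusted p = 0.0008) and the PrL (1.12, SE 0.15, adjusted p = 0.0122; 0.91 with marker sums as covariates, adjusted p = 0.362). Adamts2, which trims the amino end of fibrillar procollagens, was low in CAST in the NAcc, at 4.18 to 6.92 CPM (-1.26, SE 0.19, adjusted p = 0.00151), but with marker sums as covariates the fold was 0.06 (adjusted p = 0.995, limma). Adamts9, a protease of the secretory pathway and matrix, was higher in PWK than in Low_Average in the PrL (0.85, SE 0.17, adjusted p = 5.38e-05) and the NAcc (0.37, SE 0.12, adjusted p = 0.0173), and lower in B6 in the NAcc (-0.55, SE 0.16, adjusted p = 0.00834). Against Low_Average, Adamts1 was called in PWK in the NAcc and in no other region or strain of that comparison (-0.51, SE 0.18, adjusted p = 0.0246, limma). Adamts4 (ENSMUSG00000006403), which cuts lecticans, was high in B6. In the CeA B6 had 35.2 to 120.1 CPM (median 54.6) against 7.20 to 73.0 (1.69, SE 0.27, adjusted p = 0.0182), and in the PrL 14.7 to 38.9 CPM (median 20.8) against 3.99 to 30.8 (1.07, SE 0.22, adjusted p = 0.0292). The B6 libraries also had the highest median oligodendrocyte sum of any strain in both regions, 9411 CPM in the CeA (6458 to 20474) and 2969 CPM in the PrL (2023 to 5859), and with marker sums as covariates the unique call in the CeA was lost (0.34, adjusted p = 0.124). B6 then exceeded Low_Average in Adamts4 by 0.33 in the CeA (adjusted p = 0.000399), 0.37 in the NAcc (adjusted p = 0.000608) and 0.56 in the PrL (adjusted p = 4.14e-09, limma), where the values without them were 1.73, 0.58 and 1.10.

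The inhibitors differed among strains by less. Timp3, which binds to the matrix, was a unique DEG of B6 in the CeA at 145 to 267 CPM (median 158) against 90.2 to 181 (log2 fold change 0.48, SE 0.095, adjusted p = 0.0173, limma), a call that was lost with marker sums as covariates (0.16, adjusted p = 0.576, limma). Timp4 was one of CAST in the CeA at 35.8 to 60.1 CPM (median 43.6) against 19.6 to 40.4 (0.66, SE 0.073, adjusted p = 0.00747). Timp2 was the most abundant member, and it was not a unique DEG in any region. Timp1 lies outside the log2 table, with a mean of 0.181 CPM.

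The study's other comparison sets each of the strains of high ethanol preference against Low_Average. Both comparisons share the libraries of Low_Average, so they are given side by side. In the CeA 18 members were higher and 14 lower in B6, beside 22.3% and 18.7% of all genes; in the NAcc 7 and 17, beside 17.2% and 14.9%; and in the PrL 21 and 15, beside 18% and 19.3%. In PWK 9 were higher and 18 lower in the CeA, beside 20.1% and 19.1%; 12 and 22 in the NAcc, beside 20% and 18.8%; and 15 and 23 in the PrL, beside 23.9% and 23.2%. The median log2 fold change of the 77 was 0.23, -0.15 and -0.04 in B6 (CeA, NAcc, PrL) and -0.13, -0.15 and -0.07 in PWK, whereas that of all genes lay between 0.00 and 0.01. The split of the B6 calls turned with the libraries and the model. With marker sums as covariates 7 were higher and 8 lower in B6 in the CeA (15.2% and 13.8% of all genes), 5 and 4 in the NAcc (7.72% and 7.48%) and 15 and 18 in the PrL (16.5% and 16.2%). Without the libraries of outlying marker sums the counts in B6 were 11 and 15 in the CeA (19.2% and 15.7% of all genes). They were 7 and 12 in the NAcc (12.9% and 11.1%) and 16 and 20 in the PrL (15.5% and 15.5%). When the 12 CeA libraries with high choroid plexus markers were left out, 12 members were higher and 11 lower in B6 in the CeA (16.7% and 13% of all genes), and 11 and 19 in PWK (17.7% and 16.6%). In PWK the lower calls outnumbered the higher ones in each region under all of these fits. With the covariates the NAcc held 8 and 12 (13.4% and 12.3% of all genes). By role, with both classes picked after the counts were seen, the 8 fibril-associated collagens had 1, 1 and 0 higher and 3, 4 and 7 lower in PWK (CeA, NAcc, PrL). The 11 fibrillar collagens had 4, 1 and 3 higher and 0, 3 and 0 lower in B6, so the NAcc went the other way.

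In all 3 regions and in the same direction, 7 members differed in B6 and 13 in PWK, beside 10.8% and 22.3% of all genes. Of the 7, 4 were still called in every region with marker sums as covariates, and 7 of the 13 were. Col4a6, Mmp28 and Mmp9 in B6 and Adamts5, Col20a1, Col4a1, Col6a6, Col9a2 and Mmp28 in PWK lost at least 1 region. Others were gained: Mmp15 in B6, and Col16a1, Col1a2, Col4a4, Col8a2 and Lama1 in PWK. This fit thus held 5 in B6 and 12 in PWK, beside 7.9% and 17.9% of all genes. Without the libraries of outlying marker sums 6 and 8 were still called, and Col4a6 in B6 and Adamts16, Col20a1, Col6a6, Col9a2 and Mmp28 in PWK were not. Col9a2 was gained in B6, so 7 in B6 and 8 in PWK stood beside 8.68% and 21.2% of all genes. Without the CeA libraries of high choroid plexus markers Adamts16 in PWK was lost, and Adamts9, Col16a1, Col4a4 and Col9a3 were gained there. That fit held 7 in B6 and 16 in PWK, beside 10.5% and 21.5% of all genes. Of the 7 members of B6 in the main fit, 5 were higher. These were Col6a4 (log2 fold change 2.09, 2.92 and 1.95 in the order CeA, NAcc, PrL), Adamts4 (1.73, 0.58, 1.10), Col4a6 (1.46, 0.78, 0.98), a minor collagen IV chain, Col26a1 (0.82, 1.09, 0.66) and Mmp28 (0.93, 0.50, 0.44), the last an epilysin with roles in skin and myelin. Mmp9 (-0.62, -1.66, -0.46) and Col6a6 (-2.02, -2.43, -1.55) were lower. Col6a4 had the smallest adjusted p of these in each region: 2.98e-09, 5.79e-15 and 1.35e-12 (limma). Under the covariates Col4a6 in B6 was 0.50 in the CeA (adjusted p = 0.157), 0.38 in the NAcc (adjusted p = 0.502) and 1.12 in the PrL (adjusted p = 3.25e-05), and without the libraries of outlying sums it was 0.71 in the NAcc (adjusted p = 0.0607) and 0.68 in the PrL (adjusted p = 0.0878, limma). Mmp9 in B6 was -0.24 in the CeA (adjusted p = 0.29) and -0.33 in the PrL (adjusted p = 0.245, limma) with the covariates.

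In PWK 3 of the 13 members of the main fit were higher and 10 lower. Mmp11 (0.82 in the CeA, 0.66 in the NAcc, 0.78 in the PrL), Adamts5 (0.62, 0.41, 0.96), which cuts aggrecan, and Col4a1 (0.32, 0.27, 0.30) were higher. The lower ones were led by Col7a1 (-1.61, -2.09, -2.10), Col6a2 (-1.63, -1.53, -1.77), Col27a1 (-1.01, -1.45, -1.45) and Col6a6 (-1.56, -0.85, -1.24). Col20a1 (-1.05, -0.79, -1.42), Col11a2 (-0.89, -1.31, -0.61), Lama2 (-0.84, -1.20, -0.62), Adamts16 (-0.42, -0.49, -0.76), Col9a2 (-0.49, -0.48, -0.53) and Mmp28 (-0.41, -0.57, -0.51) made up the rest. Values within a tray come from the libraries that gave the calls, so they are no separate evidence. Of the 60 values of the members of both strains in 3 regions, 58 had the same sign in every tray. The exceptions were Col4a6 in B6 in the NAcc, given above, and Adamts16 in PWK in the CeA (0.03, -0.54 and -0.78). Mmp28 stood on opposite sides of Low_Average in the 2 strains, and Col6a6 on the same side.

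**Figure D3:**
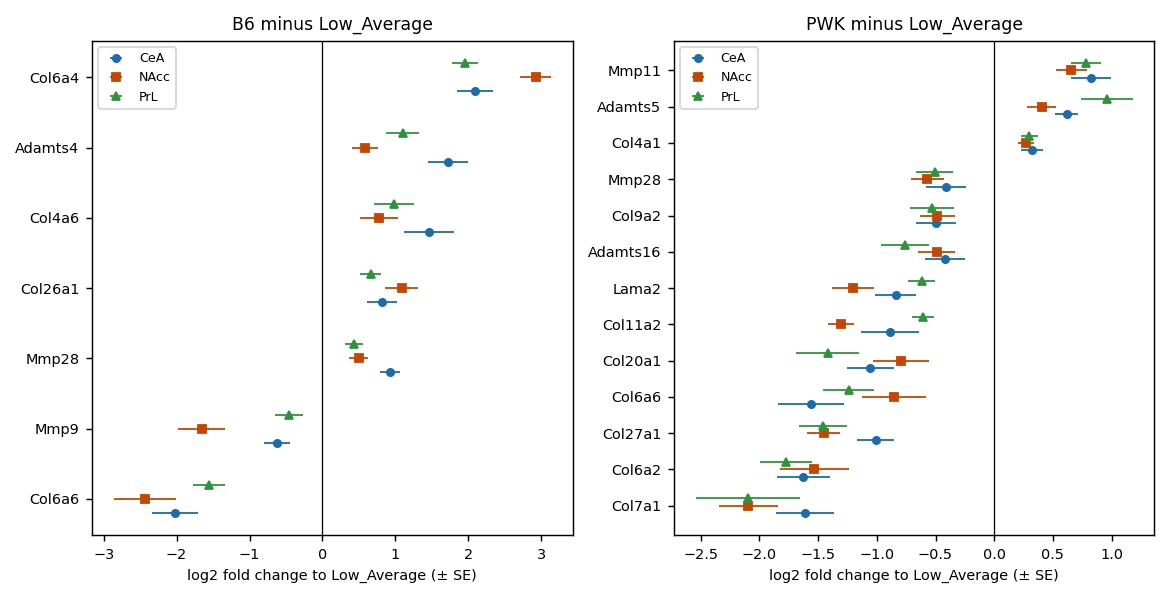
Log2 fold change from Low_Average, with its SE as a bar, for the 7 members that differed in B6 and the 13 that differed in PWK in all 3 regions in the same direction. In B6 5 lie to the right of 0 and 2 to the left, with Col6a4 at 1.95 to 2.92; in PWK 3 lie to the right and 10 to the left, with Col7a1 at -2.10 to -1.61.

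Differences between the regions were estimated over all strains from 1 model. Of the 77, 30 were higher and 31 lower in the PrL than in the NAcc (38.4% and 44.1% of all genes), 29 higher and 19 lower in the CeA than in the NAcc (33.2% and 35.9%), and 32 higher and 27 lower in the CeA than in the PrL (38.8% and 35.1%). Without the 12 CeA libraries of high choroid plexus markers, 24 were higher and 29 lower in the CeA than in the NAcc (31.9% and 36.2% of all genes), and 28 higher and 30 lower in the CeA than in the PrL (36.7% and 34.1%), so that both splits turned. All 3 Timp genes were lower in the PrL than in the NAcc and CeA. Timp2 had 252 to 495 CPM in the PrL (median 389), 336 to 804 in the NAcc (513) and 423 to 1086 in the CeA (762), and its log2 difference was -0.43 for the PrL against the NAcc (SE 0.048) and 0.93 for the CeA against the PrL (SE 0.049). Per kilobase of exon Timp2 was also the member of highest level, with medians of 196, 132 and 99.9 CPM per kilobase (CeA, NAcc, PrL), followed by Mmp17, a membrane-anchored enzyme named after its values were seen, at 33.0 and 50.1 in the CeA and PrL, and by Col6a1 at 35.2 in the NAcc.

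The members with the largest rise from NAcc to PrL were Col22a1, a collagen of tissue junctions (log2 difference 3.26, SE 0.16), Col5a1 (2.48, SE 0.12) and Adamts8 (2.46, SE 0.12). Col22a1 ran from 0.262 to 2.85 CPM in the NAcc (median 0.530) and from 1.29 to 13.0 in the PrL (median 5.69). The largest falls were in Col11a1, a fibrillar collagen (-1.80, SE 0.15), Col6a5 (-1.79, SE 0.29) and Adamts5 (-1.78, SE 0.087), which had a median of 7.05 CPM in the NAcc, 6.52 in the CeA and 1.74 in the PrL. From NAcc to CeA the largest rises were in Col23a1, a membrane collagen (1.68, SE 0.097), Col22a1 (1.68, SE 0.16) and Adamts8 (1.66, SE 0.12), and the largest falls in Col6a1 (-0.98, SE 0.12), Adamts3 (-0.96, SE 0.11) and Adamts4 (-0.85, SE 0.11). From PrL to CeA Adamts5 rose by 1.73 (SE 0.086), Col6a5 by 1.59 (SE 0.29) and Col11a1 by 1.47 (SE 0.15), and Col1a2 changed by -2.05 (SE 0.12), Col22a1 by -1.58 (SE 0.11) and Col5a1 by -1.50 (SE 0.10).

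The collagen I and III genes, Col1a1, Col1a2 and Col3a1, exceeded the NAcc in the PrL by 1.42 (SE 0.14), 2.02 (SE 0.12) and 1.47 (SE 0.15), and Lama4, a vascular laminin chain, by 1.02 (SE 0.047). Fibroblast markers of meninges and vessels moved with them: 14 of the 14 tested of 15 were higher in the PrL than in the NAcc, and their sum had a range of 49.6 to 300.4 CPM in the PrL (median 152), 22.9 to 195 in the CeA (49.2) and 18.3 to 41.7 in the NAcc (27.5). Dcn, a defining marker, was above 0 in every library of the 3 regions. The part of fibroblasts in these region differences was not tested.

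**Figure D4:**
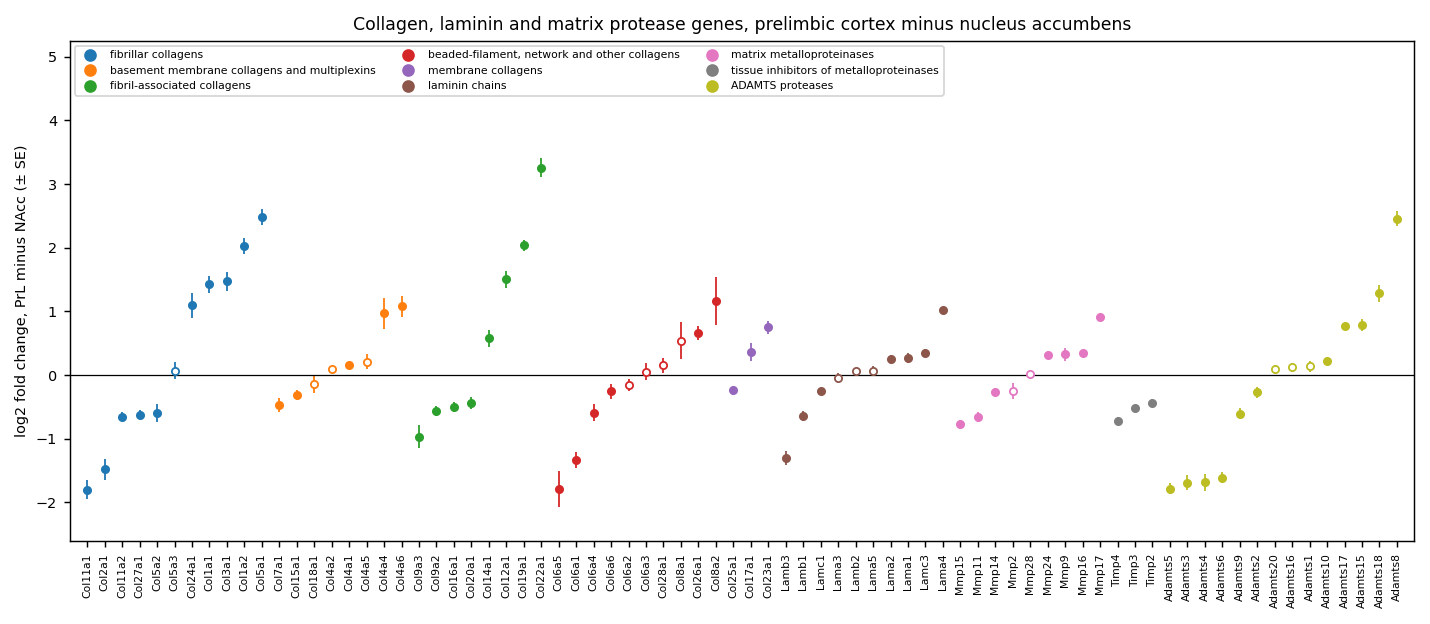
Log2 difference between PrL and NAcc with its SE for all but 1 of the 77 members, ordered within each role; filled symbols mark an adjusted p below 0.05. Rises and falls stand in every collagen and protease class, from 3.26 for Col22a1 to -1.80 for Col11a1, and all 3 Timp genes lie below 0.

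The strain differences were not the same in each region for some members. An interaction was called where the difference of 1 strain from the mean of the other 7 changed between 2 regions. Such calls were made in 23 members for PrL and NAcc (14.7% of all genes), in 12 for CeA and NAcc (12.5%) and in 20 for CeA and PrL (11.1%), and by strain in 16 for B6 (16.2% of all genes), 10 for PWK (4.73%), 9 for CAST (4.87%), 6 for WSB (2.82%), 5 for NOD (2.39%), 5 for AJ (3.65%), 4 for S129 (0.866%) and 3 for NZO (1.08%).

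The interactions given here followed the PrL values above. Col4a4 in CAST differed by 2.98 between PrL and NAcc (SE 0.59, adjusted p = 0.000887) and by -3.44 between CeA and PrL (SE 0.56, adjusted p = 3.13e-05, limma). Adamts17 in PWK differed by 1.07 (adjusted p = 1.1e-06) and -0.86 (adjusted p = 5.4e-05). Col5a1 differed in opposite senses in NOD (1.44, adjusted p = 0.00673, and -1.41, adjusted p = 0.000547) and PWK (-1.52, adjusted p = 0.00981, and 1.80, adjusted p = 8.18e-05). Col6a4 in B6 had a larger excess in the NAcc than in the PrL (-1.07, adjusted p = 0.0125).

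No member was called between females and males by limma in any region, beside 0.135%, 0.0812% and 0.0947% of all genes (CeA, NAcc, PrL). At an unadjusted p under 0.05 there were 5, 6 and 4, the smallest adjusted p was 0.438, 0.914 and 0.382, and edgeR's quasi-likelihood test and DESeq2 also called 0. The largest absolute log2 difference was 0.35, 0.47 and 0.46.

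Other genes of the matrix were examined as lists, and the examples were picked after their values were seen. Of 20 tested enzymes that process collagen, 10 were higher and 0 lower in B6 than in Low_Average in the CeA, among them Pcolce, an enhancer of procollagen cleavage (1.55, SE 0.42, adjusted p = 0.00336), whereas in the NAcc 2 were higher and 4 lower and in the PrL 3 and 0. The shares of all genes in these comparisons of B6 were 22.3% and 18.7% (CeA), 17.2% and 14.9% (NAcc) and 18% and 19.3% (PrL). Of 15 matrix receptors, 11 were higher and 0 lower in B6 in the CeA, 4 and 3 in the NAcc and 2 and 3 in the PrL, with Itga10, an integrin that binds collagen, at 1.16 in the CeA (SE 0.28, adjusted p = 0.000816), and 7 and 0, 6 and 2, and 10 and 1 were higher and lower in PWK (CeA, NAcc, PrL; 23.9% and 23.2% of all genes in the PrL), with Itga11, another of these, at 1.58 in the PrL (SE 0.13, adjusted p = 2.41e-13). Of the 20 enzymes that process collagen, 2 were higher and 2 lower in PWK in the CeA, 3 and 3 in the NAcc and 4 and 2 in the PrL. The shares of all genes in PWK were 20.1% and 19.1% (CeA), 20% and 18.8% (NAcc) and 23.9% and 23.2% (PrL). One of the 4, P4ha3, a prolyl hydroxylase of collagen, was higher in the PrL by 2.02 (SE 0.12, adjusted p = 9.76e-19, limma). Of 15 basement membrane and matrix glycoproteins, 7 were higher and 1 lower in B6 in the CeA, 2 and 3 in the NAcc and 2 and 2 in the PrL. The lecticans and their link proteins, 11 genes, were split, with 3 higher and 1 lower in B6 in the CeA, 4 and 2 in PWK in the PrL, and 5 and 5 between PrL and NAcc. In the same CeA comparison of B6, 11 of 12 endothelial, 7 of 7 oligodendrocyte and 6 of 14 fibroblast markers were higher and 0 lower; their part in these counts was not tested.

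The levels of several members followed marker sums from library to library. After strain, sex and tray had been taken out, 1155 relations of 77 members with 5 marker sums in 3 regions were computed, and the p-values are from permutation tests adjusted over all of them. Adamts4 followed the oligodendrocyte sum with r = 0.98, 0.96 and 0.97 in the CeA, NAcc and PrL (rho = 0.96, 0.94 and 0.96; each adjusted p = 8.08e-05 for r and 0.000107 for rho by permutation, from the smallest p possible). Without the 2 farthest libraries r was 0.97, 0.94 and 0.96, and within a tray it was at least 0.96, 0.93 and 0.94. Adamts3, which trims procollagens and growth factors, followed the striatal neuron sum in the NAcc with r = 0.93 (rho = 0.88, permutation adjusted p = 8.08e-05 for r and 0.000107 for rho; 0.91 without the 2 farthest; at least 0.89 within a tray) and in the CeA with r = 0.94 (rho = 0.95, permutation adjusted p = 8.08e-05 and 0.000107; 0.93 without the 2 farthest; at least 0.93 within a tray), but in the PrL r was 0.31 (rho = 0.19, permutation adjusted p = 0.0738 and 0.287). Col3a1 followed the fibroblast sum in the PrL with r = 0.91 (rho = 0.89, permutation adjusted p = 8.08e-05 and 0.000107; 0.90 without the 2 farthest; 0.94, 0.94 and 0.86 within the trays). For Col3a1 in the NAcc r was 0.60 (rho = 0.54, permutation adjusted p = 0.000139 and 0.000943; 0.12, 0.87 and 0.64 within the trays), and in the CeA it was 0.19 (rho = 0.085, permutation adjusted p = 0.277 and 0.67; -0.37, 0.43 and 0.28 within the trays). Col1a1 and Col1a2 did so less evenly, with r = 0.59 and 0.65 in the PrL (permutation adjusted p = 8.08e-05 for each) but 0.17 and 0.31 within the first tray.

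**Figure D5:**
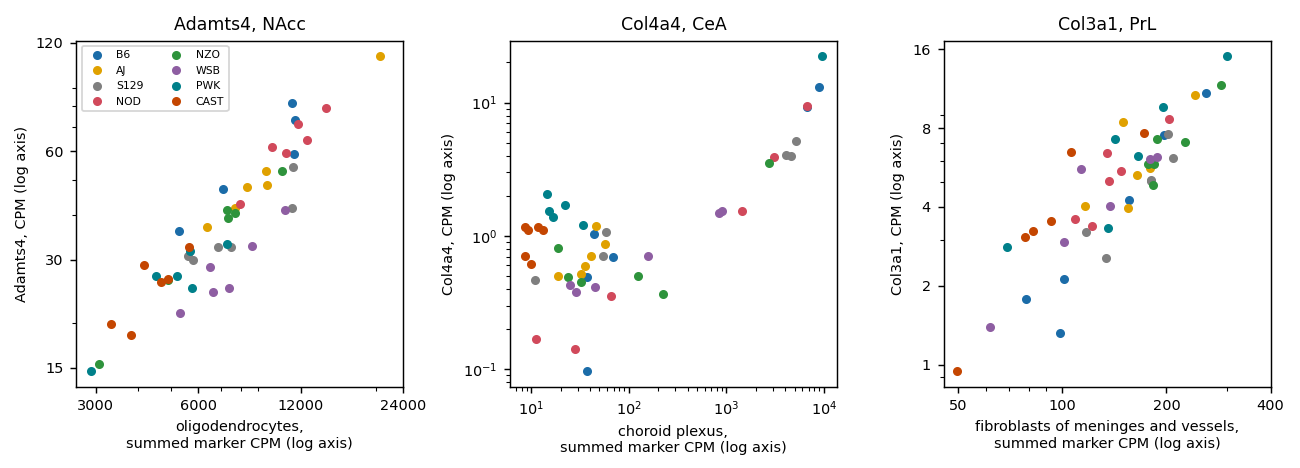
Level of Adamts4 in the NAcc against the sum of oligodendrocyte markers, of Col4a4 in the CeA against the sum of choroid plexus markers, and of Col3a1 in the PrL against the sum of fibroblast markers, in CPM on log axes; each point is a library, coloured by strain. Adamts4 and Col3a1 rise along the whole range, whereas Col4a4 rises in the 12 libraries over 500 CPM, up to 22.2 CPM, and stays at 0.0972 to 2.05 CPM in the other 36.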

How the data were processed

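Poly(A) RNA of tissue punches was sequenced from stranded libraries. Per the labels and the study's methods, reads were checked with FastQC, trimmed with Trimmomatic and aligned and counted with STAR 2.7.3a on GRCm39 (Ensembl release 105), and the authors filtered and normalized them with edgeR 3.38.1 and limma 3.52.2. The deposited counts are whole reads per gene, not normalized, and every test used them. The deposited log2 values are normalized expression and served only to define the 14785 genes tested. Of 240 deposited libraries 143 were used: the first run of the second tray, the second run of the third, and not the library of 1 B6 mouse in the NAcc that the study left out.

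The counts were scaled by TMM over the 143 libraries, and limma-voom (limma 3.58.1, edgeR 4.0.16, R 4.3.3) was fitted in each region with strain, sex and tray as terms, as in the study, with p-values adjusted by Benjamini-Hochberg over all genes and contrasts of a question and an FDR of 0.05. Adjusted p-values in the text come from this fit unless another tool is named. Regions and interactions were tested in 1 model of all libraries. CPM are counts scaled to a common TMM-normalized library size. Alternatives were DESeq2 1.42.0, quality weights, the quasi-likelihood test of edgeR, other scalings, filters and adjustments, no tray term, the other run, 1 library left out in turn and the mouse as a block. The 3 regions of a mouse come from the same animal; the median correlation of their residuals over genes was 0.00961 (PrL and NAcc), 0.0552 (CeA and NAcc) and 0.0257 (CeA and PrL), and that between different mice was at most 0.00239. Marker relations used log2 sums and 100000 permutations (scipy 1.17.1). Promoter windows are from RefSeq.

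The members, the gene lists and the tests were chosen with earlier results of these data known. Named are unique DEGs of all 3 regions or with the 3 largest folds of a region, those of NOD in the NAcc, members called against Low_Average in all 3 regions, the 3 largest region differences each way, the smallest interaction p of each pair of regions, and 26 genes of wide interest; any other member is said to be chosen after its values were seen, as are the examples from the pathway lists. The values of 1 member are not reported here, although it enters the counts. The p-values of comparisons within a region measure the spread between mice of a strain. Those between regions and of interactions treat the 3 libraries of a mouse as independent, except where the mouse is a block. Those of marker relations come from permutations of libraries over all strains.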

Additional observations from a re-analysis of the deposited data

Results flagged for a closer look

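Of 256 groups of a named member, strain and region that were compared, 25 held 1 library far from the rest by Dixon's criterion, and chance alone gives about 1 in 20. In the CeA, mouse 24 (PWK) was high in Col4a6 (4.36 CPM, next 0.860), Col27a1 (8.35, next 5.44) and Col4a4 (22.2, next 2.05), and its choroid plexus sum was the highest of all libraries, 9559 CPM. Mouse 26 (NZO) was high in Col4a4 (3.50 CPM, next 0.808), Lama2 (36.2, next 17.4) and Adamts4 (73.0, next 17.2). Mouse 44 (CAST) was low in Mmp14 (4.50 CPM, next 6.22) and Col5a1 (1.45, next 2.27). Mouse 21 (AJ) had no read of Col4a6, at 0 CPM (next 0.0487), mouse 30 (S129) was low in Col6a6 (1.50, next 2.95) and mouse 46 (S129) high in Adamts4 (29.2, next 15.6).

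In the NAcc, mouse 44 (CAST) was high in Col7a1 (6.62 CPM, next 4.24), mouse 21 (AJ) in Lama2 (38.5, next 16.6) and mouse 39 (NOD) in Col11a2 (55.9, next 41.8). Col4a4 was low in mouse 47 (NOD; 0.0509 CPM, next 0.467) and in mouse 32 (PWK; 1.05, next 1.84), and Col26a1 in mouse 5 (AJ; 0.282, next 0.819). In the PrL, Col4a6 was low in mouse 35 (WSB; 0.240 CPM, next 1.64), Mmp14 in mouse 44 (CAST; 5.01, next 6.56), and Col6a4 in mouse 17 (B6; 1.77, next 3.84) and mouse 13 (AJ; 0.419, next 0.694). Col6a4 was high in mouse 43 (WSB; 2.88, next 1.39), Col6a6 in mouse 18 (NZO; 2.56, next 1.51), Adamts4 in mouse 21 (AJ; 30.8, next 13.6) and Adamts17 in mouse 8 (PWK; 14.0, next 12.6).

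By the interaction test of limma, a strain's difference from the other 7 changed between 2 regions in many calls, counted above. The 9 given here were picked from these, for members and strains already named. Among those left out were Col5a1 in S129 (-1.06 between PrL and NAcc, 1.04 between CeA and PrL) and Col23a1 in WSB (1.88 between CeA and PrL). For Col5a1 the log2 difference was 1.44 in NOD and -1.52 in PWK between PrL and NAcc, and -1.41 in NOD and 1.80 in PWK between CeA and PrL. Between PrL and NAcc it was 2.98 for Col4a4 in CAST, 1.07 for Adamts17 in PWK and -1.07 for Col6a4 in B6, and between CeA and PrL it was -3.44 for Col4a4 in CAST and -0.86 for Adamts17 in PWK.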

How the results depend on the processing

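Of the alternatives, 3 were chosen after seeing the data: the model with marker sums as covariates, and the fits without the libraries of high choroid plexus markers or outlying marker sums. None of the 108 named calls changed sign, but among all 61 unique calls Adamts2 in CAST in the NAcc did with the covariates. Several splits of higher and lower members turned, the B6 one in the CeA most often: from 18 and 14 to 17 and 19 with quality weights, 13 and 16 with the second run of the second tray, 11 and 15 without outlying libraries and 7 and 8 with the covariates. With sample quality weights, 21 members were unique DEGs in the CeA, and interactions were called in 48 (PrL and NAcc), 42 (CeA and NAcc) and 53 (CeA and PrL). DESeq2's Wald test called 35, 24 and 31, and edgeR's quasi-likelihood test 20 for CeA and NAcc. With the B6 library left out by the study added, 7 were called for CeA and NAcc. Where a mean CPM of at least 5 was required, 50 members among 11953 genes remained: the F test called 39, 39 and 45 (CeA, NAcc, PrL), 11 were unique DEGs in the NAcc and 15 in the PrL, and against Low_Average 18 (CeA) and 21 (PrL) were called in B6 and 15, 22 and 24 in PWK. Fewer members were tested in that fit, and the part of this in the fall was not tested. With marker sums as covariates, 20 were unique DEGs in the CeA, 15 differed in B6 in the CeA and 9 in the NAcc, and 20 in PWK in the NAcc. For the other changes the cause was not tested either. Among the alternatives, shares of all genes were computed only for the 3 chosen after seeing the data. There they do not cover the F test, unique DEGs or interactions. The remaining counts, those with the mouse as a block among them, cannot be set against all genes.

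With the mouse as a replicate block, 61, 49 and 59 members differed between regions (PrL and NAcc, CeA and NAcc, CeA and PrL) and 28, 17 and 24 had an interaction, beside 23, 12 and 20 without it; the block changed no named call. Leaving out each B6 library of the NAcc in turn gave 61 to 63 members by the F test, 18 to 20 unique DEGs, 19 to 22 calls in B6, 34 in PWK and 0 between the sexes. Without mouse 9, Adamts4 in B6 in the NAcc was 0.43 (adjusted p = 0.0863, limma) and Col4a6 0.65 (adjusted p = 0.0805); Col4a6 was 0.72 without mouse 25 (adjusted p = 0.0505) and 0.71 without mouse 33 (adjusted p = 0.0566). Of 108 named calls, 8 were lost without the libraries of outlying marker sums, 4 with quality weights, 2 each with edgeR and DESeq2, and 19 of 87 with marker sums as covariates. Most often lost among the named calls were Col11a2 in NOD in the NAcc (8 of 18 alternatives), Adamts16 (6 of 12) and Mmp28 (5 of 12) in PWK in the CeA, and Col4a6 in B6 in the NAcc (6 of 16). Depth limits Col4a6 in AJ, with at most a few reads per library.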
